A study of Mus musculus with 9 samples.

Results

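Cytosolic ribosomal proteins are the protein parts of the ribosomes that translate nuclear-encoded mRNAs. They were followed here as transcripts in sorted Lgr5-GFP+ cells of the mouse small intestine, the stem cells at the base of the crypts. Members were taken by symbol: protein-coding genes of GENCODE M21 named Rpl or Rps with a number and at most a final a or x, together with Rplp0, Rplp1, Rplp2 and Rpsa. This gave 76 genes among the 57180 rows of the count table, 46 of the large subunit and 30 of the small subunit, and all 76 passed the filter on low counts. The rule leaves out some other genes of ribosomal proteins, among them Rps3a1, Fau and Rack1. None of those 3 was called in any comparison.

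The mice of every group carried Lgr5-EGFP-CreERT2, in which the Lgr5 locus drives both the green fluorescent protein used for sorting and a Cre recombinase that tamoxifen activates, and 2 floxed Kansl1 alleles (Kansl1 f/f). Controls, labelled KANSL1-WT, received corn oil. The knockout groups, labelled KANSL1-KO, received tamoxifen on each of 3 days (KO day 3) or 4 days (KO day 4). Each group had 3 libraries, and the labels do not say whether these came from separate animals, so p-values measure only the spread between these samples. Loss of Kansl1 and tamoxifen came together, and the KO groups differ in both dose and time, so neither pair of factors can be told apart.

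A ribosome is built from a small subunit, which reads the mRNA, and a large subunit, which joins amino acids and holds the exit tunnel of the new chain. Cells normally hold ribosomal proteins in nearly equal numbers, and their mRNAs are among the most abundant of a dividing cell. Most of these mRNAs begin with a run of pyrimidines at the cap (a TOP start), through which mTOR signalling controls their translation. Mammalian genomes also hold many processed copies of ribosomal protein mRNAs, most of them annotated as pseudogenes, which bears directly on how reads of these genes are counted.

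Kansl1, the targeted gene, was at 4.46, 11.4 and 9.83 CPM (counts scaled to a common library size, here with TMM) in the controls, 2.81, 2.99 and 2.55 at KO day 3, and 2.93, 5.09 and 8.96 at KO day 4. The libraries labelled KO day 4 replicates 2 and 3 lay within the control range. The counts do not separate the deleted exons from the rest of the gene. Library totals ran from 8400458 to 21484679 counts. Mitochondrial transcripts took 16.4% to 25.8% of control counts. At KO day 3 the range was 18.96% to 32.5%, and at KO day 4 it was 66.9% to 72.1%, so the counts left for nuclear genes were lowest at KO day 4. Stem cell markers, as CPM of nuclear-gene counts, summed to between 18770 and 22640 in controls. At KO day 3 they summed to 12620 to 18260. The KO day 4 libraries held 2727 to 7528. All 8 stem cell markers were detected, and 6 of them were lower at KO day 4 than in controls by edgeR. Markers of Paneth cells, the secretory neighbours of stem cells in the crypt, summed to 17980 to 43890, 29600 to 46270 and 104600 to 128900. Mast cell markers summed to 0.1 to 0.376 in controls, with Fcer1a, Ms4a2, Mcpt2 and Mcpt4 at 0. They reached 19.3, 54.6 and 179.9 at KO day 3, while the KO day 4 libraries held 416.4 to 1151. The part of these differences in the results below was not tested. In such bulk libraries fewer cells of a type and less RNA per cell cannot be told apart.

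Reads of ribosomal protein mRNAs were spread over more rows than the 76 members. Genes of which at least 50% of the 50-base windows occur in a member transcript were called its near-identical copies. There were 192 such copies, and 142 of them passed the filter. They held between 44.2% and 48.7% of the counts of members and copies together in the 9 libraries. In 45 of the 76 members the copies held more control counts than the member's own row. Of the 46 members whose coding sequence could be placed without gaps on the copy with the most counts, 12 were identical to it and 43 differed at no more than 5 bases.

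An intronless coding copy and a processed pseudogene are shown, because the reads they hold decide the calls of Rps27 and Rps13 below. Rps27 encodes a zinc finger protein of the small subunit (chr3:90212522-90213651, minus strand, GRCm38). Its row held a mean of 53.3 control counts, while Rps27rt, an intronless protein-coding copy (chr9:114982366-114982739, minus strand), held 6839. Their whole coding sequences were identical, and the first 120 bases are given in lower case with no capitals because none differed.
Rps27 and Rps27rt: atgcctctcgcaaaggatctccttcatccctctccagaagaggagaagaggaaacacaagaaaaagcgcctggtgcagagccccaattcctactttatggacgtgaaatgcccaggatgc
Rps13, a small-subunit protein (chr7:116331505-116334195, minus strand), held a mean of 24 control counts. Its processed pseudogene Rps13-ps1 (chr8:87047689-87048226, plus strand) held 14670. Coding bases 310 to 429 are given with the bases that differ in capitals, and those 2 are the only differences over the 456 coding bases.
Rps13: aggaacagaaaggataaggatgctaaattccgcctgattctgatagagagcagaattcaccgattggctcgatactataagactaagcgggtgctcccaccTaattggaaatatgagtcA
Rps13-ps1: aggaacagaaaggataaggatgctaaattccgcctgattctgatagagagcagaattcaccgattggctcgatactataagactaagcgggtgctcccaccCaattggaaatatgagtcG
Sequences are those of the GENCODE M21 transcripts. Rps6, whose protein is the substrate of S6 kinase, held 385.7 control counts at its own row and 40420 at copies, at Rps6-ps4, whose 750 coding bases are identical. Calls of members with such copies are therefore also given below with the copies' counts added to the member.

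**Figure D1:**
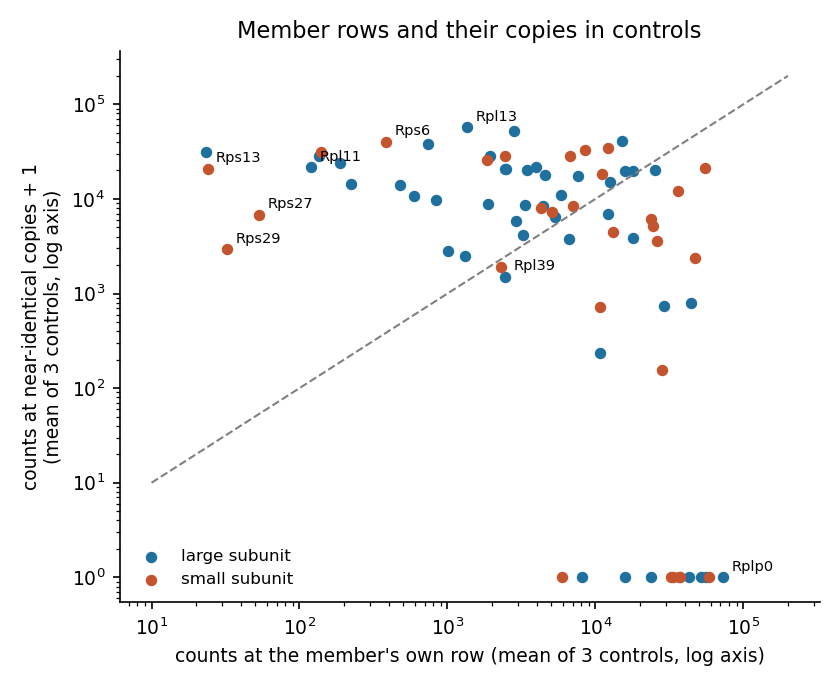
Counts at each member's own row (x axis) and at its near-identical copies plus 1 (y axis), as means of the 3 controls on log axes, for 46 large-subunit and 30 small-subunit members. Points above the dashed line of equality are the 45 members with more counts at copies than at their own row, and Rps13, Rps29, Rps27 and Rpl11 lie at the far left.

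Among member rows, mean levels in controls ran from 0.908 CPM for Rpl23a to 2813 CPM for Rplp0. Per kilobase of transcript, the highest control levels were those of Rplp1 (3386 ± 344, SD, n = 3), Rps15 (2810 ± 636) and Rpl8 (2337 ± 206) CPM per kb. Rplp1 is an acidic protein of the stalk, Rps15 a protein of the small-subunit head, and Rpl8 a core protein near the peptidyl transferase centre. The lowest were Rps13 (1.57 ± 0.158), Rpl23a (1.62 ± 0.555) and Rps29 (3.17 ± 0.641) CPM per kb. Across the 76 members the number of near-identical copies and the mean control CPM had a Spearman rho of -0.55, given as a description of rows that share libraries and an annotation.

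As a group, the members took a smaller share of nuclear-gene counts at KO day 4. They held 9.05%, 8.68% and 8.19% of those counts in the controls, 12.3%, 9.32% and 8.19% at KO day 3, and 6.98%, 6.49% and 5.65% at KO day 4. All 3 KO day 4 libraries lay below all others, and KO day 3 replicate 1 stood highest. With copies added, controls held 15.5% to 17.7%, KO day 3 libraries 15.7% to 23.2% and KO day 4 libraries 10.1% to 12.8%. After scaling by TMM, edgeR's normalization on the genes that change least, the members summed to 46690, 40117 and 36778 CPM in controls, 71397, 51555 and 43245 at KO day 3, and 45922, 43123 and 39418 at KO day 4. On that scale the KO day 4 libraries overlapped the controls. The median log2 fold change of all 13405 tested genes between KO day 4 and control was -0.06 with TMM and -0.56 when libraries were scaled by nuclear-gene counts alone, and the members moved with it, from 0.02 to -0.47. The difference between the scales is therefore one of all genes, and the changes below are those with TMM.

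**Figure D2:**
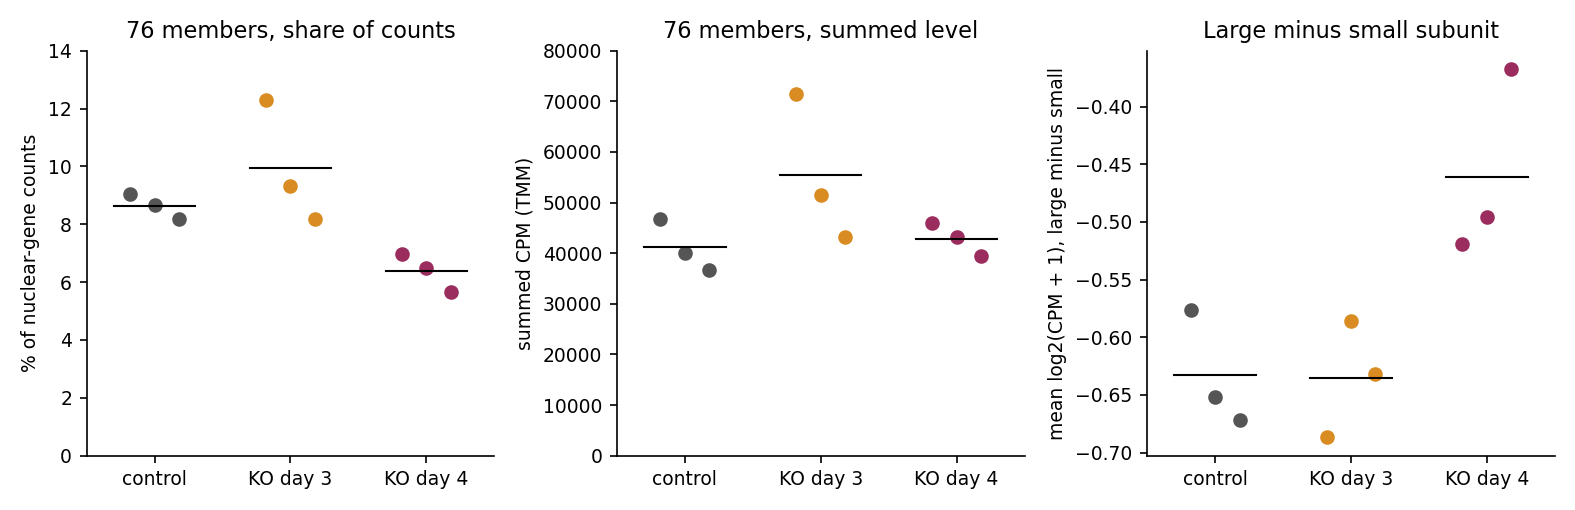
Per library, with bars at group means: the members' share of nuclear-gene counts in percent, their summed TMM-scaled CPM, and the mean log2(CPM + 1) of large-subunit members minus that of small-subunit members. KO day 4 libraries are lowest in share (5.65% to 6.98%), overlap the controls in summed CPM, and are highest in large minus small (-0.52 to -0.37).

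KO day 3 replicate 1 bears on every comparison with that group. It was the highest of the 9 libraries for 64 of the 76 members and had mast cell markers at 179.9 CPM of nuclear-gene counts, against 19.3 and 54.6 in the other KO day 3 libraries. KO day 4 replicate 3 was the lowest for 35 members and had the most mast cell and the fewest stem cell marker counts of all libraries. Values without both libraries are given beside the counts.

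At KO day 3, ribosomal protein transcripts were higher than in controls in the fitted value of all 76 members, and none passed the test. The median log2 fold change was 0.46 over the members, against -0.02 over all genes. It was 0.46 for the large and 0.46 for the small subunit. By edgeR's quasi-likelihood test 0 members were called, against 0.44% of all tested genes, and 29 of 76 had an unadjusted p under 0.05, against 15.8%. DESeq2 called 5 of the 76 higher (Rps25, Rpl38, Rpl35a, Rpl26 and Rpl7), where it called 876 of the 13405 tested genes in either direction. In 25 members all KO day 3 libraries were above all controls, against 12.1% of all tested genes, and in 0 were all below. Without KO day 3 replicate 1 and KO day 4 replicate 3 the median was 0.23, with 73 of 76 above 0 and 0 called.

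The members nearest to a call at KO day 3 were small proteins of both subunits. Rps25, a head protein used by some viral internal ribosome entry sites, was at 230.3, 191.1 and 157.6 CPM in controls and 494.7, 347.4 and 284.3 at KO day 3 (edgeR adjusted p = 0.098 for a log2 fold change of 0.96, SE 0.24). All 3 KO day 3 libraries were above the controls. Rpl38, a large-subunit protein known from work on Hox mRNA translation, was at 67.0, 47.0 and 36.7 CPM in controls and 133.4, 96.1 and 75.3 at KO day 3 (1.01, SE 0.27, edgeR adjusted p = 0.105). These groups did not overlap either. The smallest fitted values were those of Rpl3, a core protein of the large subunit (0.14), and Rpl9 (0.15). The Rpl9 row held a mean of 135 control counts, against 14680 at its copy Rpl9-ps6. The largest fitted value was that of Rps13, at 1.37 (SE 0.51, edgeR adjusted p = 0.221), a row of 21 to 46 counts per library in these groups. With its copies added it was 0.45.

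At KO day 4, most ribosomal protein transcripts could not be told from controls, and the calls that were made went both ways. The median log2 fold change was 0.02, against -0.06 over all genes, with 39 members above 0. By edgeR 2 members were higher (Rps13 and Rpl11) and 1 was lower (Rpl39), which is 3 of 76 where 22.5% of all tested genes were called. All KO day 4 libraries were above all controls in 10 members, against 20.6% of all tested genes. All were below in another 10, against 26.4%. Those above included Rpsa, the laminin receptor homologue on the small subunit, Rps2, Rps15 and Rpl41. Those below included Rpl32, Rps15a, Rps14 and Rplp1.

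Rpl39, a very small protein that lines the exit tunnel (chrX:37082520-37085402, minus strand), fell. It was at 104.4, 94.3 and 81.4 CPM in controls, 190.7, 139.2 and 103.4 at KO day 3, and 68.8, 55.5 and 51.7 at KO day 4. The KO day 4 libraries lay below all others. Against controls its log2 fold change was -0.67 (SE 0.22, edgeR adjusted p = 0.0492), and -0.63 with copies added (edgeR adjusted p = 0.056), which ends the call. Without the 2 libraries named above it was -0.59 (edgeR adjusted p = 0.0376).

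Both rises at KO day 4 were of rows whose copies held far more counts. Rps13 was at 1.01, 0.826 and 0.943 CPM in controls and 3.28, 4.61 and 3.14 at KO day 4 (edgeR adjusted p = 0.0202 for a log2 fold change of 1.98, SE 0.52). Its KO day 4 libraries held 28, 29 and 14 counts. With copies added it was at 984.5, 743.2 and 674.7 CPM in controls and 736.9, 660.9 and 537.2 at KO day 4, a log2 fold change of -0.31 (edgeR adjusted p = 0.339). Rpl11, which with Rpl5 and the 5S RNA forms the particle that binds the p53 ligase Mdm2, was at 4.54, 4.66 and 4.63 CPM in controls and 11.4, 10.7 and 5.82 at KO day 4 (edgeR adjusted p = 0.0463 for a log2 fold change of 1.02, SE 0.33). With copies added it was -0.04 (edgeR adjusted p = 0.908). The row of its partner Rpl5 was at 133.9, 107.9 and 77.7 CPM in controls and 152.6, 137.5 and 124.5 at KO day 4 (0.38, edgeR adjusted p = 0.255). That row held a mean of 2815 control counts, against 49740 at the copy Gm15500, whose coding bases are identical. Neither Rps13 nor Rpl11 was called against control with its copies added, and Rps13 was then lower between the KO times (-0.76, edgeR adjusted p = 0.0496). Among the other high values at KO day 4, the rows of Rpl36 (0.80, edgeR adjusted p = 0.0818) and Rpl13 (0.78, edgeR adjusted p = 0.0853) of the large subunit did not pass the test. They held means of 223 and 1354 control counts, against 12290 and 47970 at the copy of each with the most counts.

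Counting copies changed the direction of the median at KO day 4. It was -0.18 with copies added, with 23 of 76 above 0, against 0.02 for the member rows. With copies added and without KO day 3 replicate 1 and KO day 4 replicate 3 it was -0.08, against -0.05 over all genes. With copies added and all 9 libraries kept, 0 members were higher and 1 was lower, Rps27, which joins the identical Rps27rt. Without those 2 libraries 4 were higher and 3 lower. Rps27 and its copies were at 291.5, 264.9 and 231.3 CPM in controls, 477.8, 341.0 and 283.6 at KO day 3, and 158.3, 127.4 and 148.7 at KO day 4. All KO day 4 libraries lay below all others, with a log2 fold change against controls of -0.86 (SE 0.20, edgeR adjusted p = 0.0115). The Rps27 row alone held 0 counts in KO day 4 replicate 3 and was not called (-0.12, edgeR adjusted p = 0.926).

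The calls at KO day 4 against control also rested on single libraries. Without control replicate 2 or control replicate 3 no member was called in either direction. Without control replicate 1 the 2 calls were Rpl13 and Rpl38, both higher. Without KO day 3 replicate 1, which enters through the shared spread, 7 were higher and 4 lower. Without KO day 3 replicate 2 Rps13 alone was called, without KO day 4 replicate 2 Rpl41, Rpl36 and Rpl38 were, all higher, and without KO day 4 replicate 1 1 was higher and 2 lower. Without KO day 4 replicate 3 Rpl11 and Rps13 were higher and 0 were lower. DESeq2 called 10 of the 76 members higher and 1 lower, where it called 4050 of the 13405 tested genes. Over the fits without 1 library, 1588 to 3839 of all genes were called.

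**Figure D3:**
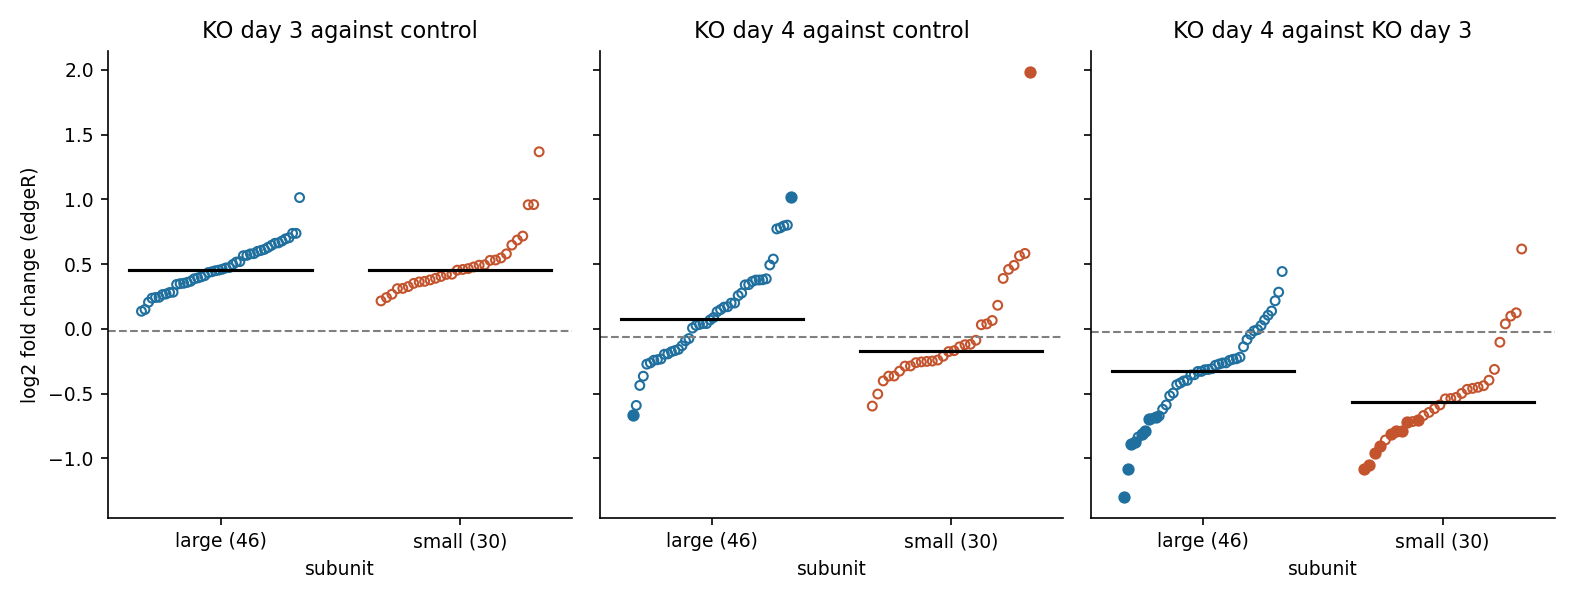
Log2 fold change of each of the 76 members by subunit in the 3 comparisons, ordered within a subunit. Filled points passed edgeR's test, black lines are subunit medians and the dashed line is the median of all tested genes. All members lie above 0 at KO day 3 with none filled, and the 17 filled points between KO day 4 and KO day 3 are all below 0.

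Between the KO times, 17 of the 76 members were lower at KO day 4 by edgeR and 0 were higher, against 6.03% of all tested genes called lower. The median log2 fold change was -0.44 over the members, against -0.02 over all genes, with 65 of 76 below 0. Without KO day 3 replicate 1 and KO day 4 replicate 3, 3 of 76 were lower, against 4.93% of all tested genes, and the median was -0.14 against -0.04. In 32 members all KO day 4 libraries lay below all KO day 3 libraries, against 17.0% of all tested genes. With copies added the count was 27 lower and 0 higher, against 6.02%, and 15 of the 17 were among those 27. This comparison and that of KO day 3 with control share the KO day 3 libraries, so their opposite signs are not separate observations.

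The members called lower came from both subunits and from several regions of each. Those of the small subunit included Rps28, Rps26 and Rps14 at the platform, where the mRNA leaves, Rps25, Rps18 and Rps12 of the head and beak, Rps15a of the body, and the X-linked Rps4x. Of the large subunit they were Rpl39 of the exit tunnel, Rplp1 and Rplp2 of the stalk, and Rpl30, Rpl32, Rpl34, Rpl35a and Rpl18.

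The largest change was that of Rpl39, given above by library, at -1.30 (SE 0.22, edgeR adjusted p = 0.00638). It was called lower in all 21 alternative settings. Rpl30, at the interface with the small subunit (chr15:34440505-34443640, minus strand), was at 266.2, 174.9 and 158.7 CPM at KO day 3 and 113.6, 92.4 and 76.8 at KO day 4 (-1.08, SE 0.23, edgeR adjusted p = 0.0136). In controls it was at 146.3, 131.9 and 105.4, between those groups in 2 of its libraries and within the KO day 4 range in the other. Rps28, at the mRNA exit, was at 168.5, 147.5 and 111.0 CPM at KO day 3 and 83.8, 58.2 and 59.3 at KO day 4 (-1.08, SE 0.28, edgeR adjusted p = 0.0316). Its controls, at 113.3, 95.7 and 50.7, spanned both groups.

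Rps15a, a body protein of the small subunit (chr7:118104372-118116188, minus strand), was at 728.0, 517.2 and 447.3 CPM at KO day 3 and 353.8, 272.0 and 245.4 at KO day 4 (-0.96, SE 0.21, edgeR adjusted p = 0.0157). Its controls, at 451.7, 391.1 and 393.3, were above all KO day 4 libraries. Rps18, where the heads of the subunits meet (chr17:33951999-33956001, minus strand), was at 461.2, 345.8 and 306.8 CPM at KO day 3 and 222.1, 218.9 and 191.4 at KO day 4 (-0.82, SE 0.18, edgeR adjusted p = 0.0165). Rpl35a, one of the genes mutated in Diamond-Blackfan anaemia, was at 64.1, 42.5 and 48.0 CPM at KO day 3 and 27.9, 24.8 and 30.7 at KO day 4 (-0.89, SE 0.20, edgeR adjusted p = 0.0173). Controls of both overlapped the KO day 4 libraries. Rps25 and Rps12 changed by -1.05 (edgeR adjusted p = 0.021) and -0.91 (0.0232).

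**Figure D4:**
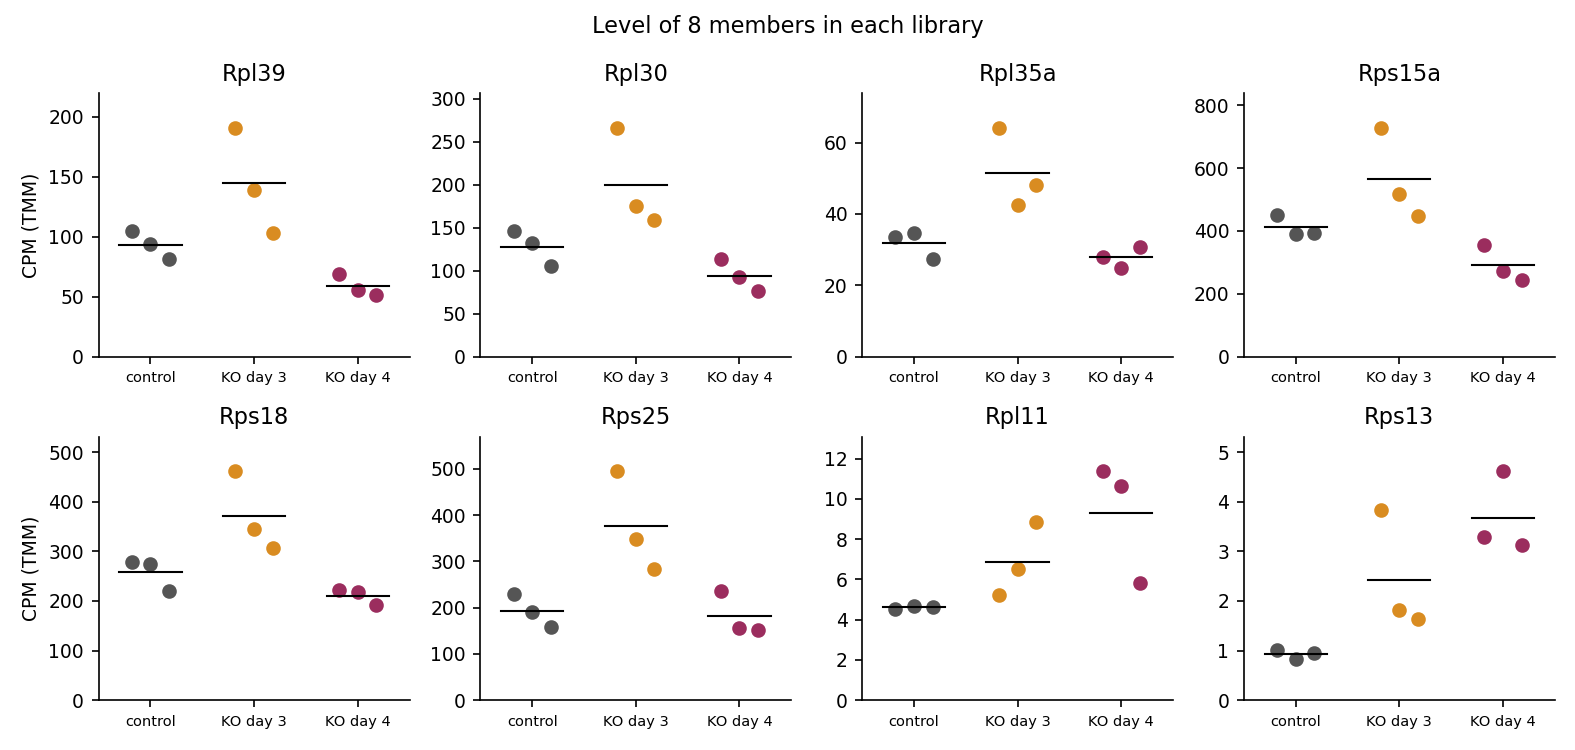
TMM-scaled CPM of 8 members in each library, with bars at group means. In Rpl39, Rpl30, Rpl35a, Rps15a, Rps18 and Rps25 every KO day 4 library is below every KO day 3 library, while the low rows Rpl11 and Rps13 are above the controls at KO day 4.

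Of the stalk, the base did not pass the threshold between the KO times, and the proteins it carries passed it narrowly. Rplp0, its base, was at 3031, 2683 and 2726 CPM in controls, 4418, 3387 and 2942 at KO day 3 and 2935, 2831 and 2915 at KO day 4, a log2 fold change between the KO times of -0.31 (edgeR adjusted p = 0.304). Rplp1 and Rplp2, which recruit elongation factors, fell, with log2 fold changes of -0.79 for Rplp1 (SE 0.23, edgeR adjusted p = 0.0466) and -0.81 for Rplp2 (SE 0.23, edgeR adjusted p = 0.0391). Rplp1 was at 3384, 2101 and 1781 CPM at KO day 3 and 1511, 1413 and 1270 at KO day 4. Rpl12, beside the stalk base, had -0.26 (edgeR adjusted p = 0.514). Whether these differ from each other was not tested. All KO day 4 libraries of Rplp0 also lay below all its KO day 3 libraries. Rplp1 was called lower in 8 of 21 alternatives and Rplp2 in 13. Neither was called without KO day 3 replicate 1 and KO day 4 replicate 3. Among members not called, the rows of Rpl9 (0.22, edgeR adjusted p = 0.68) and Rpl29 (-0.01, edgeR adjusted p = 0.984), both of the large subunit, were near 0. The Rpl9 row held far fewer control counts than its copy Rpl9-ps6 (a mean of 135 against 14680).

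The number called between the KO times moved with single libraries. It was 5 without KO day 3 replicate 1, which was the highest library of most members, and 3 without it and KO day 4 replicate 3. Those 3 were Rpl39 (-0.97, edgeR adjusted p = 0.02), Rpl35a (-0.78, edgeR adjusted p = 0.0287) and Rpl30 (-0.70, edgeR adjusted p = 0.0446). It was 5 without KO day 3 replicate 2, 26 without KO day 3 replicate 3, 3 without KO day 4 replicate 2, 4 without KO day 4 replicate 3 and 8 without control replicate 2. DESeq2 called 27, including all 17, where it called 2879 of the 13405 tested genes in either direction. Over the fits without 1 library, 648 to 1802 of all genes were called in either direction.

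Small-subunit transcripts had a lower median log2 fold change than large-subunit transcripts at KO day 4, and the same median at KO day 3. Their mean level was the higher of the subunits in every library. The mean log2(CPM + 1) of large-subunit members minus that of small-subunit members was -0.58, -0.65 and -0.67 in the controls, -0.69, -0.59 and -0.63 at KO day 3, and -0.52, -0.50 and -0.37 at KO day 4. All 3 KO day 4 libraries lay above all others, and KO day 4 replicate 3 stood farthest. With copies added the values were -0.23 to -0.17, -0.23 to -0.16 and -0.05 to -0.02. Against control the median log2 fold change at KO day 4 was 0.08 for the large and -0.17 for the small subunit. Between the KO times it was -0.32 with 8 of 46 lower, and -0.56 with 9 of 30 lower, against 6.03% of all tested genes. Without KO day 3 replicate 1 and KO day 4 replicate 3, the 3 members called lower (Rpl39, Rpl35a and Rpl30) were all of the large subunit. The large minus small difference of the medians was then 0.217. The large minus small difference of the medians was above 0 in 21 of 21 alternatives, both at KO day 4 against control (0.20 to 0.39) and between the KO times (0.17 to 0.33). The alternatives reuse the same libraries, and a change of scaling moves both subunits nearly alike. Their number therefore adds no separate support. These are descriptions of one set of members, with no test.

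Shorter member transcripts had lower fitted log2 fold changes between the KO times than longer ones, given here with no test. Of the 38 members under the median transcript length 15 were called lower, with a median of -0.65. Of the 38 at or over it 2 were called lower, with a median of -0.32. Of all tested genes 6.03% were called lower. Length was not examined over all tested genes, so a relation shared by other genes cannot be told from one of the members. In the large subunit the medians were -0.62 over 21 short and -0.26 over 25 long members, and in the small subunit -0.72 over 17 and -0.54 over 13. At KO day 3 against control the shorter members had a median of 0.53 and the longer 0.39. Without KO day 3 replicate 1 and KO day 4 replicate 3, the medians between the KO times were -0.36 and -0.03. Spearman's rho of length with this change was 0.39 over the 76 members, which share libraries. The lengths are those of annotated transcripts, up to 3706 bases for Rps20, and can differ from those of the transcripts expressed.

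**Figure D5:**
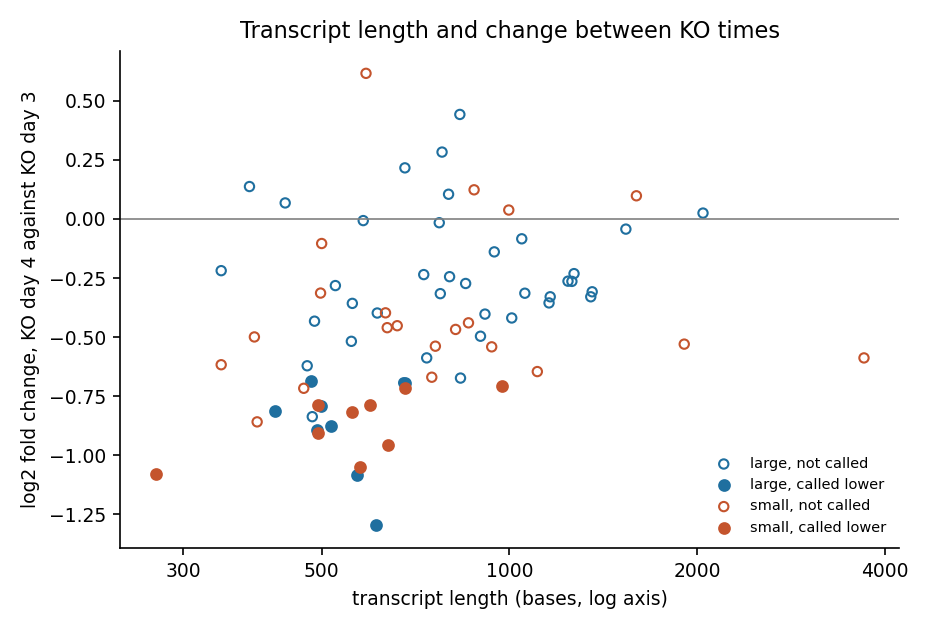
Transcript length of each member (x axis, bases, log scale) and its log2 fold change between KO day 4 and KO day 3 (y axis), by subunit, with filled points called lower. Of the 17 called members 15 are among the 38 shorter transcripts.

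The start regions of the members were examined for shared letters, since many of them moved together. RefSeq windows around the annotated start (GRCm38.p6) were matched by symbol for 56 members, in 66 windows. A C at the annotated first base followed by 4 more C or T bases, the letters of a TOP start, was found in 19.7% of member windows and 2.5% of all 32851 windows. This match needs the exact first base, and many RefSeq starts lay a few bases from the nearest GENCODE start. The share is therefore not that of mRNAs with a TOP start. On either strand, ACTTCCG, the core of ETS family sites, was found in 31.8% of member windows and 6.4% of all. CTCTTTCC, which extends a pyrimidine stretch, was in 19.7% and 3.1%, and AAGATGGC, the core of YY1 sites, in 10.6% and 2.7%. The shorter strings CTCTTTC and CTTTCC, which lie within CTCTTTCC, were in 30.3% and 8.2% and in 50% and 26.6%. At least 1 of ACTTCCG, CTCTTTCC and AAGATGGC was found in 6 of the 12 members called lower between the KO times that had a window, and in 23 of the other 44.

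Start regions of 3 members called lower are given, because they differ in these strings. Each runs from 80 bases before to 20 bases from the start on, 5′ to 3′ on the gene's strand, with matches to the 3 strings on either strand in capitals.
Rps18 (chr17:33955646-33955745, minus strand): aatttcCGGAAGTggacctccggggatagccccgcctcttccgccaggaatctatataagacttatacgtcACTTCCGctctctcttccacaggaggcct
Rps15a (chr7:118116128-118116227, minus strand): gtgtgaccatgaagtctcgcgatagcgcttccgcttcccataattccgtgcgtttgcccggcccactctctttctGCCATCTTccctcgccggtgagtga
Rpl39 (chrX:37085203-37085302, minus strand): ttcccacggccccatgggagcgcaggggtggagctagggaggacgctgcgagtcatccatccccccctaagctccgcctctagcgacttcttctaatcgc
Rps18 held ACTTCCG once on each strand, Rps15a held AAGATGGC on the other strand, and the Rpl39 stretch held none of the strings. The RefSeq starts of Rps18, Rpl39 and Rps15a lie 336, 180 and 41 bases downstream of the first GENCODE start of each gene. The Rps18 and Rpl39 stretches are therefore within the genes as annotated by GENCODE, and that of Rps15a is partly so. Over all member windows, 62 of 66 RefSeq starts were within 50 bases of a GENCODE transcript start. A match, or none, describes the letters of these stretches only.

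Other genes of translation were taken from lists, and edgeR called 0 of them at KO day 3 in the lists that follow, where 11 of 78 mitochondrial ribosomal proteins and 11 of 35 initiation factors had an unadjusted p under 0.05, against the 15.8% of all tested genes. DESeq2 counts were not made for lists. The mitochondrial ribosome, which translates the mitochondrial genome, had 19 of 78 proteins lower and 0 higher at KO day 4 against control, with a median of -0.40. Of all tested genes 11.5% were lower and 11.1% higher in that comparison, with a median of -0.06, and the counts of the lists below are to be read against these shares. Mrps33 fell by 1.49 (SE 0.27, edgeR adjusted p = 0.00385) and Mrpl44 by 1.14 (SE 0.23, edgeR adjusted p = 0.00632). Between the KO times 10 of the 78 were lower, against 6.03% of all tested genes, with a median of -0.46. The count was 5 without KO day 3 replicate 1 and KO day 4 replicate 3, against 4.93%, with a median of -0.31. Of 35 translation initiation factors 10 were higher and 3 lower at KO day 4 against control, among them the scaffold Eif4g3 (2.56, edgeR adjusted p = 0.00137), Eif1 (0.97), the subunit joining inhibitor Eif6 (0.89) and Eif3b (0.66). Of 6 elongation factors Eef1d, an exchange factor of eEF1A, was higher (1.05, SE 0.23, edgeR adjusted p = 0.00938).

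Of 16 other mRNAs known for a TOP start 1 was called higher at KO day 4 against control, Hnrnpa1 (0.70, edgeR adjusted p = 0.0243). Among 15 regulators of such mRNAs, the translation repressors Eif4ebp1 (1.07, SE 0.22, edgeR adjusted p = 0.00671) and Eif4ebp2 (0.71) and the mTOR activator Rheb (0.59) were higher, and the kinase Mtor was lower (-1.31, SE 0.35, edgeR adjusted p = 0.0217). Of 15 chaperones and importers of ribosomal proteins 2 were lower, Tsr2, which carries Rps26 (-1.18, SE 0.24, edgeR adjusted p = 0.00592), and the importin Ipo9 (-0.68, edgeR adjusted p = 0.0266). Of 14 ribosome quality control genes 4 were higher, against 11.1% of all tested genes, among them Rnf10, a ubiquitin ligase of the small subunit (0.94, edgeR adjusted p = 0.00183), and the recycling factor Abce1 (0.81). Cdkn1a, the cell cycle inhibitor downstream of p53, rose by 3.60 (SE 0.25, edgeR adjusted p = 3.29e-05). It is given alone, without the counts of a list, and its relation to the ribosomal protein transcripts was not tested. Of 8 tested paralogs 2 were lower, Rps27rt (-0.87) and Rps4l (-0.78, edgeR adjusted p = 0.0392). The counts of Rps27rt are also in the sum of Rps27 and its copies above, so these are not separate observations.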

How the data were processed

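RNA of sorted Lgr5-GFP+ cells was measured in 9 libraries, 3 per group, grouped by their titles. The deposited values are whole-number counts for each Ensembl identifier, which the authors had not normalized. HISAT2 2.0.4 and GRCm38 are named in the submitters' processing notes. The counting tool, its strand setting and annotation, and how reads with several matches were handled are not given in the sources used here. Reads of overlapping, antisense or near-identical genes may therefore be split or lost. Symbols, coordinates and transcripts are GENCODE M21. Transcript length is that of the shortest complete principal protein-coding transcript, which can differ from the one expressed.

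Counts were tested with edgeR 4.0.16 in R 4.3.3 (filterByExpr with a minimum count of 10 and total of 15, TMM, 1 quasi-likelihood fit of all 9 libraries, two-sided), adjusted by Benjamini-Hochberg over 13405 genes, threshold 0.05. SE is the fold change divided by the square root of F. The procedure was tested on simulated data. DESeq2 1.42.0 and other scalings, filters, sample sets and blocks were alternatives. Library totals bound precision, and member rows held 176044 to 1220056 counts per library. Named members are, for each comparison, up to 5 called each way with the smallest adjusted p and the 3 highest and lowest fold changes, with the extremes of control level per length, the stalk and the 5S particle, and any member whose direction differs from most in a called comparison. For lists they are up to 4 genes with the smallest adjusted p. Rpl34, Rpl18, Rps14, Rps26, Rps4x, Rps27, Rps2, Rps6, Rpsa, Rpl41, Rpl7 and Rpl26 fall outside and were named after their values were seen, as were the start-region strings. Members and lists were chosen with earlier results of these data known. Some items are not reported here.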

Additional observations from a re-analysis of the deposited data

Results flagged for a closer look

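Of the 76 members, 17 were called lower at KO day 4 than at KO day 3, against 6.03% of all tested genes. Of those 17, 11 are named members, which were picked in part by these same values. Their log2 fold changes of KO day 4 against KO day 3 (edgeR's quasi-likelihood test, adjusted p under 0.05) were -1.30 for Rpl39, -1.08 for Rpl30, -1.08 for Rps28, -1.05 for Rps25, -0.957 for Rps15a, -0.907 for Rps12, -0.891 for Rpl35a, -0.874 for Rpl32, -0.816 for Rps18, -0.815 for Rplp2 and -0.792 for Rplp1. All 3 KO day 4 libraries lay below all 3 KO day 3 libraries in each of these picked members, against 17.0% of all tested genes. Of these, Rpl39, Rpl30 and Rpl35a passed without KO day 3 replicate 1 and KO day 4 replicate 3.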

How the results depend on the processing

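Calls near the threshold, low rows and reads placed at copies limit these results, and 3 libraries per group limit the precision. Of 21 alternatives, 3 were chosen after seeing the data: nuclear-gene counts alone, copies added to members, and copies added without KO day 3 replicate 1 and KO day 4 replicate 3. The median of the members was above 0 at KO day 3 and below 0 between the KO times in all 21, and above 0 in 11 of 21 at KO day 4 against control. The other changes, whose cause was not tested unless the setting itself removes genes or samples, were as follows.

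With library size alone, 518 genes were called at KO day 3 (member median 0.115), 11057 at KO day 4 against control (0 members higher, 74 lower, median -1.84) and 9508 between the KO times (75 members lower, median -1.97). With nuclear-gene counts alone these were 267 genes, 5086 genes (1 member higher, 36 lower, median -0.471) and 2735 genes (43 lower, median -0.702). The medians of all tested genes, in the same order, were -0.3905, -1.946 and -1.535 with library size alone. They were -0.2393, -0.5648 and -0.3057 with nuclear-gene counts alone. Without the filter 317 genes and 2 members were called at KO day 3, 4 members were lower at KO day 4 against control, and 28 were lower between the KO times. With a minimum mean CPM of 5, 1 member was higher and 0 lower at KO day 4 against control, and with RLE size factors 0 were lower. DESeq2 called 876 genes and 5 members at KO day 3, 10 members higher at KO day 4 against control, and 2879 genes and 27 members lower between the KO times. With only the groups compared, 337 genes were called at KO day 3, 4 members higher and 2 lower at KO day 4 against control, and 806 genes and 8 members lower between the KO times. Without KO day 3 replicate 1 and KO day 4 replicate 3 646 genes were called at KO day 3, 4112 genes at KO day 4 against control (6 members higher, 2 lower), and 3 members were lower between the KO times (median -0.140). With copies added 0 members were higher at KO day 4 against control and 27 lower between the KO times. With copies added and without those libraries 656 genes were called at KO day 3, 4 members were higher and 3 lower at KO day 4 against control, and 3 were lower between the KO times, with large minus small at 0.166.

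The labels do not say that replicate numbers pair the libraries, and deviations of same-numbered libraries correlated at -0.0646 to 0.202 over tested genes, not all over 0.1, so the samples were taken to share only a number. As a hint from the data, 3 of 3 controls correlated best with their own number at KO day 3, 0 at KO day 4, and 1 of the KO day 3 libraries did at KO day 4. The members' summed CPM was highest in the library numbered 1 and lowest in that numbered 3 in each group. With the replicate block 9 genes were called at KO day 3, 6 members were higher and 5 lower at KO day 4 against control (large minus small 0.342), and 27 were lower between the KO times, including all 17.

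Leaving out 1 library at a time gave, at KO day 3, 0 to 0 members called either way, 0 to 345 genes, a median of 0.225 to 0.602 and large minus small of -0.0256 to 0.0469. At KO day 4 against control it gave 0 to 7 members higher, 0 to 4 lower, 1588 to 3839 genes, a median of -0.112 to 0.128 and large minus small of 0.212 to 0.386. Between the KO times it gave 0 to 0 higher, 3 to 26 lower, 648 to 1802 genes, a median of -0.580 to -0.272 and large minus small of 0.204 to 0.327.

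Signs of named members reversed with library size alone at KO day 4 against control, to -0.842 for Rpl11, -1.84 for Rpl12, -1.05 for Rpl13, -1.59 for Rpl23a, -1.70 for Rpl29, -1.07 for Rpl36, -1.07 for Rpl38, -1.48 for Rpl5, -1.71 for Rpl8, -1.48 for Rpl9, -1.85 for Rplp0, -1.28 for Rps15 and -1.41 for Rps29. Between the KO times they became -1.04 for Rpl11, -1.24 for Rpl13, -1.40 for Rpl36, -1.50 for Rpl5 and -1.29 for Rpl9. With library size alone the medians of all tested genes in these comparisons were -1.946 and -1.535, so the shift is not one of the members alone. Nuclear-gene counts gave -0.461 for Rplp0 at KO day 4 against control. Copies added gave -0.0394 for Rpl11 and -0.313 for Rps13 there, -0.759 for Rps13 between the KO times, and, without the 2 libraries, -0.195 for Rps13.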
